A study of Homo sapiens with 12 samples.

Results

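CXCL10, CXCL11 and CCL5 are chemokine genes that cells switch on in response to interferons and to infection. The 3 genes were taken by name from the 19128 gene symbols of the deposited expression table and from the 25289 symbols of the deposited transcript lists. They were chosen by their known response to interferon and by their change under TBZ in these libraries, so their values are given as a description, with no test on them. Each of the 3 had a single line in the expression table, and all 3 reached the minimum level used here, a mean of 1 FPKM (sequenced fragments per kilobase of transcript, scaled to the size of the library) in at least 1 group.

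The cells were HT-29, a human colorectal adenocarcinoma line, grown in RPMI under 5% CO2. TBZ is a mixture of zVAD-fmk (30 µM), BV6 (2 µM) and TNFa (20 ng/mL): a caspase inhibitor, an antagonist of the inhibitor of apoptosis proteins, and a cytokine that activates NF-kB, used together to cause necroptotic death. Lentiviral knockdown of MLKL (shMLKL) lowers the effector that permeabilises the plasma membrane in this form of death. The first experiment gave 4 libraries with no replicate: parental cells with no knockdown, kept in DMSO or given TBZ for 4 h, and shMLKL cells, kept in DMSO or given TBZ for 12 h. The second experiment had 8 libraries in 4 groups of 2, from shGFP cells (labelled as having no gene knocked down) and from shMLKL cells, with DMSO or with TBZ for 5 h. How long DMSO was applied is not given, nor how many clones or shRNA sequences each line holds. No label says that libraries 1 and 2 of a group were separate cultures, so every SD, SE and p-value below measures only the spread between those libraries, which may be technical.

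CXCL10 and CXCL11, together with CXCL9, are the ligands of CXCR3, a receptor on activated T cells and natural killer cells. CCL5 acts through receptors that include CCR1 and CCR3 and attracts T cells, monocytes and eosinophils. In epithelial cells their genes are switched on when interferon signals through JAK kinases to factors, STAT2 and IRF9 among them, that bind interferon-stimulated response elements, when IRF factors are activated by nucleic acid sensors, and when NF-kB is activated by TNF.

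CXCL10 (hg19 chromosome 4, 76942269 to 76944689) and CXCL11 (chromosome 4, 76954840 to 76957350) lie on the reverse strand, 10151 bases apart. CCL5 is on chromosome 17 (34198496 to 34207377, reverse strand). ART3 runs through both CXC chemokine genes on the opposite strand, and its level was at most 0.0439 FPKM in the second experiment and 0.0339 in the first. The sequences before the start sites of CXCL10 and CXCL11 are shown for their motifs, whose part in the response to TBZ was not tested. These sequences are from RefSeq on GRCh38.p14, the 250 bases before the annotated start read 5′ to 3′ on the gene's strand. Matches to the interferon-stimulated response element and to the NF-kB consensus are in capitals. A promoter entry was found for 2 of the 3 genes.
CXCL10 (chr4:76023498-76023747, reverse strand): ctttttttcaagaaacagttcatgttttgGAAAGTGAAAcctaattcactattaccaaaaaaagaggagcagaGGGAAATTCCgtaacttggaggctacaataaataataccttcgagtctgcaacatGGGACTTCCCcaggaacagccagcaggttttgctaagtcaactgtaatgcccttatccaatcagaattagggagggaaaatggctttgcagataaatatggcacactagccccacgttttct
CXCL11 (chr4:76036071-76036320, reverse strand): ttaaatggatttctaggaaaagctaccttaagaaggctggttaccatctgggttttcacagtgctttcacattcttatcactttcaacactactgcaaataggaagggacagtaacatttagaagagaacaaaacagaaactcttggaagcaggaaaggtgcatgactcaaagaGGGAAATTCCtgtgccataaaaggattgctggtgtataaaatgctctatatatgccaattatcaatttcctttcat

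Both strands were searched for each motif. The interferon-stimulated response element, taken as GAAA, any 2 bases and GAAA again, matched CXCL10 once, 221 to 212 bases before the start, and matched 3.02% of 35116 human promoter windows of this length. The NF-kB consensus matched CXCL10 at 177 to 168 and at 122 to 113 bases before the start, the latter on both strands, and CXCL11 at 76 to 67 bases. It matched 9.96% of all windows at least once and 1.72% at 2 or more positions, and 0.202% of windows held both it and the interferon element. The same letters, GGGAAATTCC, are at the distal NF-kB match of CXCL10 and at that of CXCL11, at different distances from the start. CXCL11 also had a gamma-activated site (TTCNNNGAA, in 6.57% of windows) at 240 to 232 bases, an AP-1 site (TGANTCA, in 6.57%) at 87 to 81 bases and TATAAA (in 10.7%) at 42 to 37 bases. The third CXCR3 ligand, CXCL9, had the interferon element at 171 to 162 bases before its start and TATAAA at 191 to 186, with no match to the other motifs in its window. Apart from the match on both strands, no motif overlapped another. These are matches of letters and not measured binding.

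**Figure D1:**
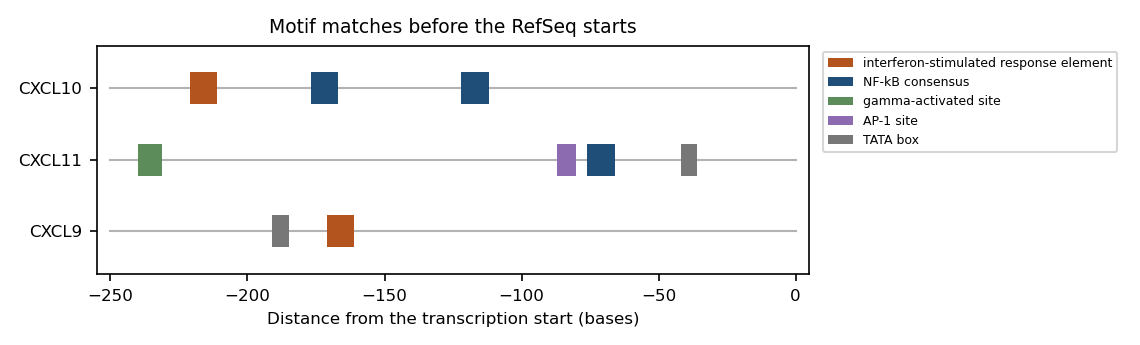
Positions of motif matches in the 250 bases before the RefSeq start of CXCL10, CXCL11 and CXCL9; the horizontal axis is the distance from the start in bases and each coloured block is a match on either strand. CXCL10 has the interferon-stimulated response element and 2 NF-kB matches, CXCL11 has an NF-kB match nearer the start, and CXCL9 has the interferon element.

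MLKL itself followed the labels in the second experiment, with 3.89 to 3.95 FPKM in untreated and 1.98 to 2.03 in treated shGFP cells and 0.395 to 0.651 over the 4 shMLKL libraries. It stood at 6.31 and 6.16 FPKM in parental cells and at 0.854 and 2.14 in shMLKL cells of the first experiment. The deposited files hold no read counts, so absolute depth is unknown, and relative depth over the 8 libraries was estimated at 82.9 to 100% of the deepest. Across genes, the correlation was 0.994 to 0.996 within a group and 0.964 to 0.983 between groups. Of 22 leukocyte markers, 2 reached 1 FPKM in at least 1 library of the second experiment (CD68, 4.18 to 5.3, and CD14, at most 1.38), and CD3D, CD3E, CD3G, CD8B, CD2, NKG7, GNLY, GZMA and MS4A1 were listed at 0 in all 8 libraries. The leukocyte markers summed to 5.98 to 7.19 FPKM in untreated and 6.08 to 6.48 in treated shGFP cells, and to 5.88 to 6.43 in untreated and 4.91 to 6.03 in treated shMLKL cells. In the first experiment the sum was 11.3 and 1.76 FPKM in parental and 14.5 and 44.4 in shMLKL cells, untreated and treated, and 2 of the 22 reached 1 FPKM in each library but that of treated parental cells, where 1 did. CD68, a lysosomal protein, was at 6.38 and 0 in parental and at 8.29 and 41.6 in shMLKL cells. The part of these markers in the chemokine levels was not tested. Of 10 colon epithelial markers, 8 reached 1 FPKM in at least 1 library of the second experiment, with EPCAM at 313 to 393 FPKM, while CDX1 and CDX2 were at most 0.208. The keratin genes KRT8 and KRT18 were listed at 0 in 7 of the 8 libraries and at 694 and 535 in the other, so a 0 in these files can be a failed estimate.

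CXCL10 was the most abundant of the 3 in shGFP cells and, on the log2 scale, changed most of the 3 with TBZ in shMLKL cells and differed most between the lines, while in shGFP cells CCL5 changed most. In shGFP cells its level was 10.5 and 11.3 FPKM under DMSO and 17.7 and 17.5 after TBZ. In shMLKL cells it was 2.21 and 1.86 FPKM under DMSO and 10.7 and 11.9 after TBZ. Both TBZ libraries lay above both DMSO libraries in each line, and the treated shMLKL libraries overlapped the untreated shGFP libraries. The mean was 1.61 times as high after TBZ in shGFP cells (10.9 ± 0.589 to 17.6 ± 0.118 FPKM, SD, n = 2 libraries; difference of log2(FPKM + 1) 0.64, SE 0.08) and 5.57 times as high in shMLKL cells (2.03 ± 0.25 to 11.3 ± 0.886; log2 difference 2.02, SE 0.08). The log2 effect of TBZ was larger in shMLKL cells by 1.38 (SE 0.11), the widest gap between the lines among the 3 genes. That gap comes with a lower start: under DMSO, CXCL10 was 5.38 times lower in shMLKL than in shGFP cells (log2 difference −1.98, SE 0.08), and after TBZ 1.56 times lower (−0.60, SE 0.08), with no overlap of the libraries in either condition. In bulk RNA, fewer cells with a high level and a lower level in every cell cannot be told apart.

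CXCL11 showed a smaller change and ended at overlapping levels in the lines. It stood at 5.17 and 6.12 FPKM in shGFP DMSO and at 8.28 and 8.17 in shGFP TBZ. In shMLKL cells it stood at 3.38 and 3.92 FPKM under DMSO and at 9.25 and 8.25 after TBZ. The DMSO libraries of shMLKL were the lowest and those of shGFP next, while the TBZ libraries of the lines overlapped at the top. Its mean was 1.46 times as high after TBZ in shGFP cells (5.64 ± 0.679 to 8.23 ± 0.078 FPKM; log2 difference 0.48, SE 0.09) and 2.4 times as high in shMLKL cells (3.65 ± 0.381 to 8.75 ± 0.705; log2 difference 1.07, SE 0.09). The effects differed by 0.59 (SE 0.13). Under DMSO it was 1.55 times lower in shMLKL cells (log2 difference −0.52, SE 0.09), and after TBZ the lines differed by 0.08 (SE 0.09).

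CCL5 was the least abundant in the second experiment. Its level was 1.24 and 1.51 FPKM in shGFP DMSO and 3.51 and 3.39 in shGFP TBZ. In shMLKL cells the DMSO libraries were at 0.626 and 1.41 FPKM and the TBZ libraries at 4.56 and 4.74. The treated shMLKL libraries were the highest, the treated shGFP libraries next, and the untreated libraries of the lines overlapped. The mean was 2.52 times as high after TBZ in shGFP cells (1.37 ± 0.191 to 3.45 ± 0.0818 FPKM; log2 difference 0.91, SE 0.17) and 4.56 times as high in shMLKL cells (1.02 ± 0.556 to 4.65 ± 0.13; log2 difference 1.51, SE 0.17). The effects differed by 0.60 (SE 0.24), a value that ran from 0.32 without shMLKL DMSO library 1 to 0.89 without shMLKL DMSO library 2. After TBZ, CCL5 was 1.35 times as high in shMLKL as in shGFP cells (log2 difference 0.34, SE 0.17, no overlap), the reverse of the order seen for CXCL10. Under DMSO the log2 difference between the lines was −0.26 (SE 0.17), and 0.03 without shMLKL DMSO library 1.

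**Figure D2:**
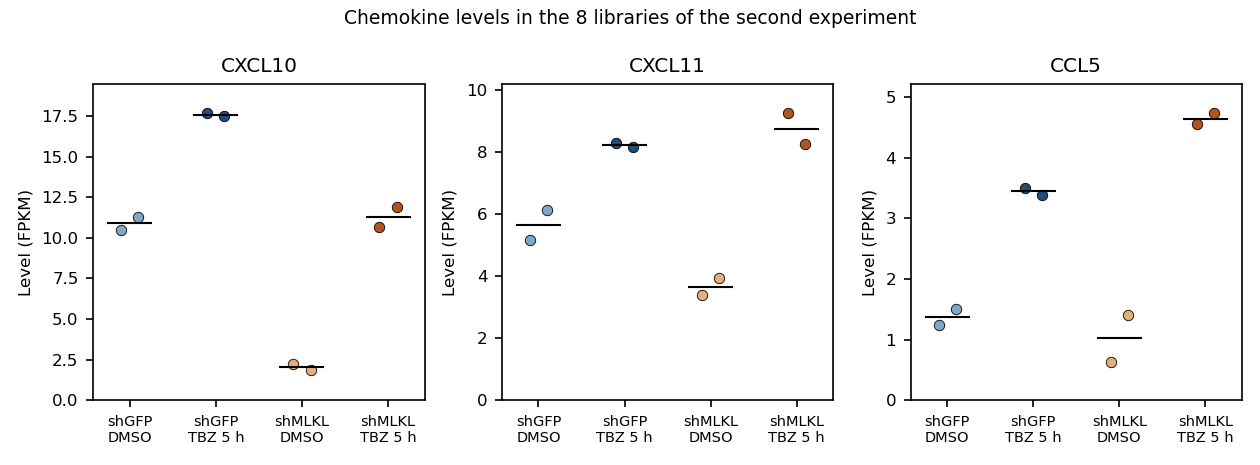
Levels of CXCL10, CXCL11 and CCL5 in the 8 libraries of the second experiment; the vertical axis is FPKM from 0, each point is a library and each bar the mean of the 2 libraries of a group. All TBZ libraries lie above the DMSO libraries of their line, and untreated shMLKL cells have the lowest CXCL10, 1.86 and 2.21 FPKM.

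The 3 genes were thus without overlap and higher after TBZ in both lines, where 26.6% of the 10364 genes tested were higher without overlap in shGFP cells and 34.3% in shMLKL cells. Without overlap and lower in shMLKL cells were 2 of the 3 under DMSO (57.4% of all genes) and CXCL10 alone after TBZ (45.3%), where CCL5 was higher without overlap (31%). The choice of the genes rested on these comparisons, so their counts carry no weight against those shares. The median of all genes shifted by −0.12 after TBZ in shGFP cells, by −0.00 in shMLKL cells and by −0.16 between the lines under DMSO, and the log2 values above are not corrected for it.

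The proportions of the chemokines also differed between lines. The ratio of CXCL10 to CXCL11 (both in FPKM) was 2.03 and 1.85 in shGFP DMSO and 2.14 and 2.15 in shGFP TBZ. In shMLKL cells it was 0.654 and 0.474 under DMSO and 1.15 and 1.45 after TBZ. CXCL10 thus exceeded CXCL11 in every shGFP library and every treated shMLKL library, and was below it in both untreated shMLKL libraries. The ratio of CXCL10 to CCL5 was 8.51 and 7.54 in untreated and 5.05 and 5.17 in treated shGFP cells, and 3.53 and 1.31 in untreated and 2.34 and 2.52 in treated shMLKL cells. CXCL10 was the gene with the larger share in each library, and the ratio was lower in every shMLKL library than in any shGFP library. The summed level of the 3 was 16.9 and 19 FPKM in untreated and 29.5 and 29.1 in treated shGFP cells, and 6.21 and 7.18 in untreated and 24.5 and 24.9 in treated shMLKL cells.

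The first experiment had 1 library a group and no test. Its transcript values were normalised apart from the gene values of the second experiment, so FPKM levels of the experiments may not share a scale. CXCL10 was at 1.38 FPKM (deposited interval 0.993 to 1.77) in parental DMSO and 38.7 (36.8 to 40.7) after 4 h of TBZ, 28 times as high. In shMLKL cells it was at 1.8 FPKM (1.38 to 2.22) under DMSO and 446 (427 to 466) after 12 h, 248 times as high. The intervals are those that accompany each transcript's estimate in the authors' files and describe a single library, not the spread between cultures. Mean read coverage of the CXCL10 transcript was 9.14 and 289 in the parental libraries and 13.9 and 3711 in the shMLKL libraries, so the low values rest on far fewer reads.

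CXCL11 moved less than CXCL10 at both times. It went from 6.54 FPKM (5.72 to 7.36) to 14.4 (13.1 to 15.6) at 4 h in parental cells, 2.19 times as high. In shMLKL cells it went from 1.6 FPKM (1.23 to 1.98) to 95.3 (90.5 to 100) at 12 h, 59.5 times as high. The ratio of CXCL10 to CXCL11 was 0.211 in parental DMSO and 2.7 at 4 h, and 1.12 in shMLKL DMSO and 4.68 at 12 h, so CXCL11 was the more abundant only in untreated parental cells among these 4 libraries.

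CCL5, summed over its RefSeq transcripts, went from 4.16 to 23.5 FPKM at 4 h (5.63 times as high) and from 2.24 to 21.3 FPKM at 12 h (9.5 times as high). Its treated level was no higher at 12 h than at 4 h, whereas CXCL10 and CXCL11 were both well above their 4 h level in the 12 h library. All 3 genes passed a 2-fold difference on the FPKM + 1 scale at both times, with CXCL11 at 4 h just inside it (log2 ratio 1.03). Among genes compared, 6.81% were at least 2-fold higher at 4 h and 6.49% at 12 h. The chemokines were chosen in part by their change under TBZ, so their count carries no weight against those shares. The effects of time and line cannot be told apart here, because the 4 h library is of parental cells and the 12 h library of shMLKL cells.

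**Figure D3:**
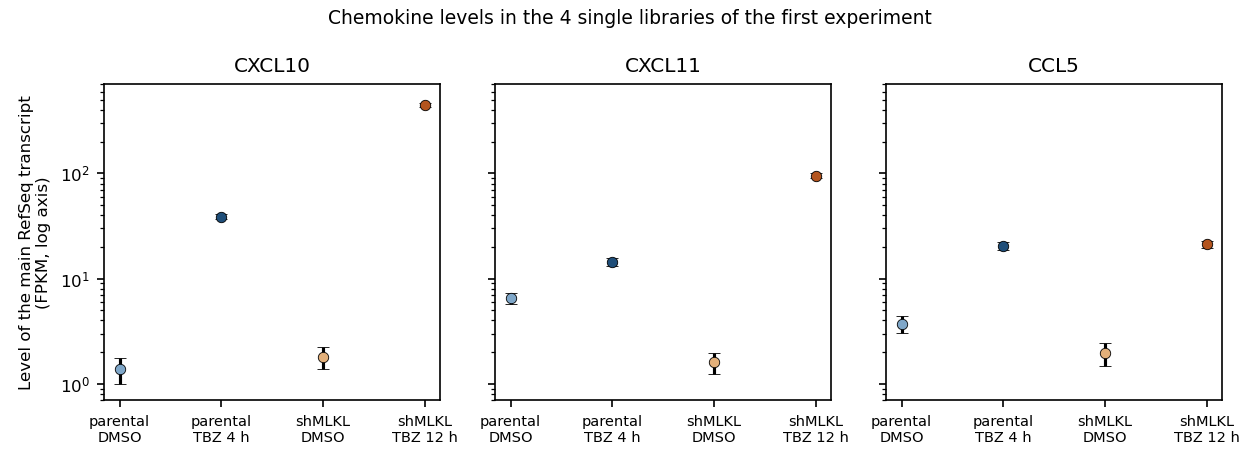
Level of the main RefSeq transcript of CXCL10, CXCL11 and CCL5 in the 4 single libraries of the first experiment; the vertical axis is FPKM on a log scale, each point is a library and the bars are the deposited intervals of the estimate. CXCL10 runs from 1.38 FPKM in untreated parental cells to 446 in shMLKL cells after 12 h of TBZ, and CCL5 is near 21 FPKM in both treated libraries.

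Untreated levels were not alike in the experiments, whose tables were normalised separately. Parental DMSO held 1.38 FPKM of CXCL10 and shGFP DMSO 10.9 ± 0.589, while shMLKL DMSO held 1.8 in the first experiment and 2.03 ± 0.25 in the second. CXCL11 was 6.54 FPKM in parental and 5.64 ± 0.679 in shGFP cells, and 1.6 and 3.65 ± 0.381 in shMLKL cells of the first and the second experiment. CCL5 was 4.16 FPKM in parental and 1.37 ± 0.191 in shGFP cells, and 2.24 and 1.02 ± 0.556 in shMLKL cells. The lower CXCL10 of untreated shMLKL cells relative to shGFP cells therefore had no counterpart against parental cells, where 1.38 and 1.8 FPKM had overlapping intervals.

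The transcript lists show which isoforms carried these levels. CXCL10 was a single RefSeq transcript with no other assembled at its locus. CXCL11 came from its first RefSeq transcript, the other being listed at 0 in all 4 libraries, plus an assembled transcript that runs past the annotated 3′ end. That longer form was at 1.22 FPKM in parental DMSO and 2.41 at 4 h, and at 0.463 in shMLKL DMSO and 16.6 at 12 h. CCL5 was mostly its main RefSeq transcript, with the other isoform at 0.447 FPKM in parental DMSO, 2.9 at 4 h and 0.279 in shMLKL DMSO, and listed at 0 at 12 h.

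Other ligands of the same receptors were all but undetected. None of 12 reached the minimum level in the second experiment. CXCL9, the third CXCR3 ligand and the neighbour of CXCL10 at 13593 bases, was at most 0.0928 FPKM in the second experiment. It was 0.226 in the 12 h library, where CXCL10 was at 446. Of CCL3 and CCL4, CC chemokines related to CCL5, the highest value in any library of the second experiment was 0.126 FPKM (CCL4). The receptors CXCR3, CCR1 and CCR3 were at most 0.0825 FPKM there. DPP4, the surface protease that trims and inactivates CXCL10, was the only 1 of 8 receptor and DPP4 genes tested. It fell in shGFP cells from 4.26 and 4.18 to 2.84 and 3.12 FPKM (log2 change −0.39, limma BH-adjusted p = 0.00234). In shMLKL cells it was at 4.79 and 5.31 under DMSO and 4.3 and 4.28 after TBZ (−0.19, limma BH-adjusted p = 0.0649). With library medians set equal the fall in shMLKL cells was called (−0.22, limma BH-adjusted p = 0.0436). The effects of TBZ on DPP4 were not called different between the lines (0.20, limma BH-adjusted p = 0.183).

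Of the interferon genes themselves, 2 of 11 were tested, and IFNL1, a type III interferon of epithelial cells, rose in both lines. It went from 0.688 and 0.187 to 2.24 and 2.16 FPKM in shGFP cells (log2 change 1.18, limma BH-adjusted p = 0.00106) and from 0.477 and 0.812 to 2.34 and 2.9 in shMLKL cells (1.14, limma BH-adjusted p = 0.00201). For comparison, 56.4% of the genes tested were called in shGFP cells (19.1% higher and 37.3% lower) and 37.5% in shMLKL cells (20% higher and 17.6% lower). With library medians set equal, 44.5% of the shGFP calls were higher instead of 33.9%. The type I interferon gene IFNB1 stayed at or below 0.178 FPKM at 5 h. In the first experiment IFNB1 was at 0.294 and 2.26 FPKM in parental cells and 0.226 and 1.74 in shMLKL cells, and IFNL1 at 1.89 and 18.5 and at 0.847 and 16.6, each untreated and treated. IFNG, the gene of interferon gamma, was listed at 0 in all 12 libraries.

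Receptors and signal carriers of the interferon pathway mostly rose. In the list of interferon receptors and JAK-STAT genes, 9 of 11 tested rose and 1 fell in shGFP cells (median log2 change 0.64). In shMLKL cells 9 rose and 0 fell (0.70). Over all genes tested, 19.1% were called higher and 37.3% lower in shGFP cells, and 20% and 17.6% in shMLKL cells. IFNGR2, a subunit of the interferon gamma receptor, rose from 24.2 and 23.4 to 124 and 128 FPKM in shGFP cells and from 28.5 and 28.9 to 119 and 118 in shMLKL cells. STAT2, a signal carrier of the type I and type III interferon receptors, rose only in shMLKL cells by the test, from 2.82 and 2.77 to 5.34 and 4.57 FPKM, against 3.96 and 4.32 and then 4.11 and 3.88 in shGFP cells, and the effects differed (0.69, limma BH-adjusted p = 0.00648). IRF9, the DNA-binding partner of STAT2, fell in shGFP cells from 22.8 and 21.6 to 15.3 and 17.5 FPKM and was at 17.7 and 16.4 and then 18.1 and 17.5 in shMLKL cells.

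Most of the IRF and nucleic acid sensing genes tested rose in each line. Of 6 IRF genes tested, 5 rose and 0 fell in shGFP cells (median 0.85) and 4 rose and 0 fell in shMLKL cells (0.52). IRF1, an activator that NF-kB itself induces, rose from 6.51 and 6.58 to 37.5 and 37.3 FPKM in shGFP cells (log2 change 2.35, limma BH-adjusted p = 3.56e-08) and from 13.8 and 12.8 to 61.5 and 64.6 in shMLKL cells (2.16, limma BH-adjusted p = 1.29e-07). It was higher in the shMLKL line under DMSO (0.92, limma BH-adjusted p = 6.19e-06) and after TBZ (0.74, limma BH-adjusted p = 2.26e-05), the opposite order to CXCL10. Of 13 sensing genes, 9 rose and 3 fell in shGFP cells and 9 rose and 2 fell in shMLKL cells. For the IRF and sensing lists alike, the shares of all genes were 19.1% higher and 37.3% lower in shGFP cells. In shMLKL cells they were 20% and 17.6%. DDX58, which encodes RIG-I, rose from 24.5 and 26.7 to 38.2 and 36.4 in shGFP cells and from 13.5 and 12.8 to 33 and 31.8 in shMLKL cells, and like CXCL10 it had a larger effect in shMLKL cells (difference 0.72, limma BH-adjusted p = 0.000792) and was lower there under DMSO (−0.91, limma BH-adjusted p = 9.66e-06).

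The NF-kB list had the highest median change at 5 h among the 8 signalling and target lists. It holds 13 genes: subunits, inhibitors and the kinase complex genes CHUK, IKBKB and IKBKG. Of these 13, 11 rose and 0 fell in each line, with medians of 1.94 and 1.72. Called higher over all genes were 19.1% in shGFP and 20% in shMLKL cells, and called lower 37.3% and 17.6%. IKBKG, not called, was listed at 0 in all libraries of the second experiment but shMLKL TBZ library 1 (4.78 FPKM), and such a 0 can be a failed estimate. NFKBIA, the inhibitor that NF-kB induces to end its own signal, rose from 16.5 and 16.9 to 317 and 319 FPKM in shGFP cells and from 9.88 and 9.08 to 161 and 165 in shMLKL cells. NFKB1, which encodes p105, the precursor of the p50 subunit, rose from 13.9 in both libraries to 75.8 and 73.7 and from 13 and 12.6 to 61.2 and 61.7. CXCL10, CXCL11 and CCL5, with log2 differences of 0.48 to 0.91 in shGFP cells and 1.07 to 2.02 in shMLKL cells, lay below the list's median except for CXCL10 in shMLKL cells.

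The lines differed in the antiviral interferon-stimulated genes. Of 34 tested, 13 rose and 8 fell in shGFP cells (19.1% and 37.3% of all genes, list median 0.09). In shMLKL cells 23 of the 34 rose and 0 fell (20% and 17.6% of all genes, list median 0.41). The effects of TBZ differed for 19 of the 34, 18 larger and 1 smaller in shMLKL cells. The list's median difference was 0.48, against 0.10 over all genes, of which 14.6% were called larger and 7.66% smaller. Across all genes the calls of this difference were 65.6% larger as deposited and 38.9% with library medians set equal, under which setting 16 of the list were larger and 1 smaller. Under DMSO 28 of the 34 were lower and 1 higher in shMLKL cells (44.8% and 18.3% of all genes), and after TBZ 18 were lower and 7 higher (31% and 20.7%). With library medians set equal, 24 were lower and 3 higher under DMSO, while higher genes made up 53.1% of all calls instead of 29%, and after TBZ 17 were lower and 8 higher, with 54.6% of all calls higher instead of 40%.

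CXCL10 had the same order of group means as XAF1, a pro-apoptotic interferon-stimulated gene. XAF1 was the gene most correlated with CXCL10 over these same 8 libraries, so the likeness there is no independent finding. In the first experiment XAF1 was at 3.88 and 3.29 FPKM in parental and 3.59 and 52 in shMLKL cells, untreated and treated. It thus did not share the rise of CXCL10 at 4 h. In the second experiment XAF1 rose from 6.29 and 6.9 to 9.32 and 8.89 FPKM in shGFP cells. In shMLKL cells it rose from 1.8 and 1.98 to 7.28 and 7.02, with a difference of effects of 1.08 (limma BH-adjusted p = 0.000341). Of the antiviral genes in the first experiment, 14 of 34 were at least 2-fold higher at 4 h and 31 of 34 at 12 h. Among all genes compared the shares were 6.81% and 6.49%. The list's median log2 ratios were 0.85 and 2.29, against −0.22 and −0.13 over all genes compared. The 4 h library is of parental and the 12 h library of shMLKL cells, so time and line cannot be told apart.

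Genes of the interferon gamma type, which IRF1 can drive, rose in both lines, and where their effects differed they rose by less in shMLKL cells. Of 11 tested, 10 rose and 0 fell in each line, with medians of 1.44 in shGFP and 0.96 in shMLKL cells. Over all genes 19.1% were called higher and 37.3% lower in shGFP cells, and 20% and 17.6% in shMLKL cells. The effects differed for 5 of the 11, all smaller in shMLKL cells, against 14.6% larger and 7.66% smaller over all genes. GBP1, an interferon-inducible GTPase, rose from 1.47 and 1.77 to 39.5 and 41.2 FPKM in shGFP cells and from 0.436 and 0.463 to 7.14 and 7.51 in shMLKL cells (difference −1.46, limma BH-adjusted p = 0.000107). The difference of effects for each of the 3 chemokines had the opposite sign, 0.59 to 1.38.

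**Figure D4:**
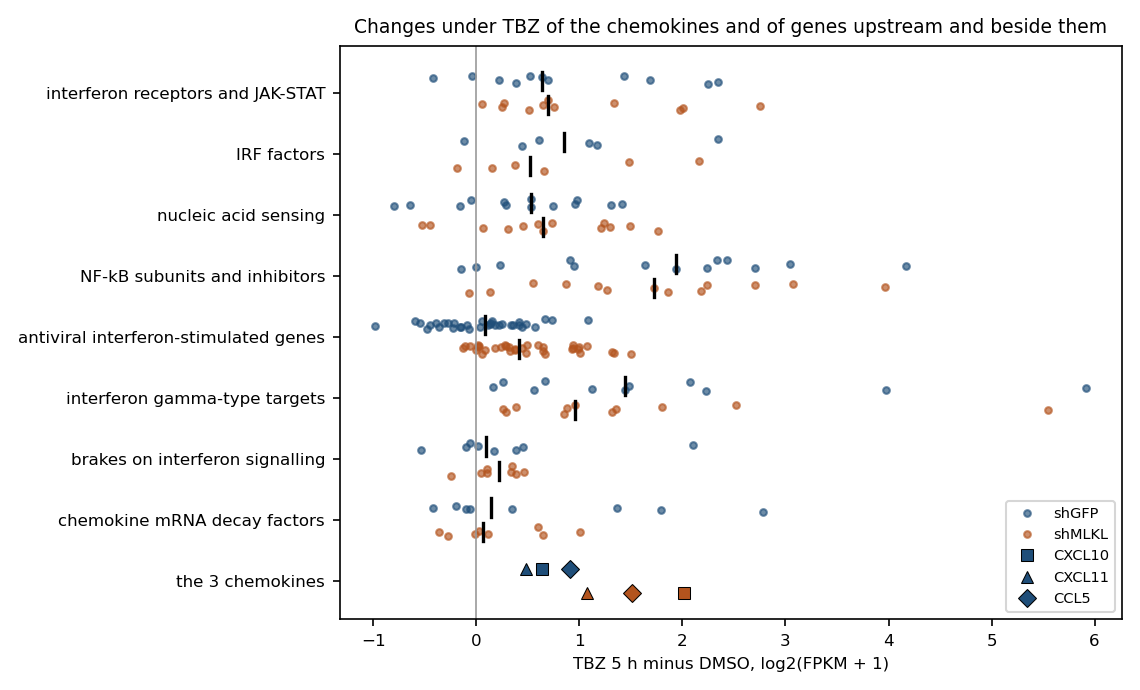
Log2 change of FPKM + 1 after 5 h of TBZ for genes of 8 lists (circles) and for the 3 chemokines (square CXCL10, triangle CXCL11, diamond CCL5), in shGFP cells in blue and shMLKL cells in orange; black ticks are list medians. The antiviral genes have a median of 0.09 in shGFP and 0.41 in shMLKL cells, the NF-kB genes 1.94 and 1.72, and each chemokine lies further right in shMLKL cells.

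The effects of TBZ on inhibitors of the pathway differed between the lines in both directions, and those on regulators of mRNA decay in 1 direction. Of 8 brakes on interferon signalling, 4 rose and 1 fell in shGFP cells and 3 rose and 1 fell in shMLKL cells. The effect was larger in shMLKL cells for 1 brake and smaller for 2 (median difference 0.02). SOCS3, a feedback inhibitor of JAK kinases, rose from 0.375 and 0.239 to 4.45 and 4.71 FPKM in shGFP cells and from 0.759 and 0.833 to 1.52 and 1.41 in shMLKL cells (difference −1.64, limma BH-adjusted p = 0.000147). Of 8 regulators of mRNA decay, 4 rose and 1 fell in shGFP cells and 3 rose and 2 fell in shMLKL cells. This list includes ELAVL1 and HNRNPD and is not limited to factors that destroy mRNA. For brakes and decay regulators alike, the shares of all genes were 19.1% higher and 37.3% lower in shGFP cells. In shMLKL cells they were 20% and 17.6%. The effect was larger in shMLKL cells for 0 of the 8 decay regulators and smaller for 4 (median difference −0.26). Over all genes 14.6% were called larger and 7.66% smaller. ZFP36, which encodes tristetraprolin and directs decay of mRNAs with AU-rich elements, rose from 22 and 22.2 to 160 and 156 FPKM in shGFP cells and from 39.7 and 36 to 57.3 and 62.9 in shMLKL cells (difference −2.13, limma BH-adjusted p = 7.42e-06). ZC3H12A, the endonuclease Regnase-1, rose from 3.25 and 3.62 to 14.5 and 14.2 and from 2.94 and 3.29 to 7.09 and 7.43 (difference −0.78, limma BH-adjusted p = 0.00192). The ZFP36 and ZC3H12A effects were smaller, and the log2 differences of the 3 chemokines larger, in shMLKL than in shGFP cells. Whether decay bears on the chemokine levels was not tested.

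The genes whose log2 level followed each chemokine most closely were sought among 2045 genes with a range of at least 1 over the 8 libraries. For CXCL10 they were XAF1 (Pearson r 0.994), POLH (0.992) and the RNA sensor gene TLR3 (0.989). POLH, a translesion DNA polymerase, was listed at 0 in both shMLKL DMSO libraries. For CXCL11 they were GCA (0.985), MICALL2 (0.980) and SAMD9L (0.979), and for CCL5 GPR158 (0.975), CDRT1 (0.974) and PPIF (0.967). Among themselves CXCL10 and CXCL11 correlated at 0.875, CXCL11 and CCL5 at 0.937, and CXCL10 and CCL5 at 0.687. All values of a library share its RNA and scaling and the libraries fall into 4 groups, so these coefficients rest largely on differences between group levels.

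Genes within 50 kb of a chemokine were also followed. Within 50 kb of CXCL10 the gene SDAD1, of ribosome maturation, fell in shGFP cells from 21.1 and 21.8 to 16.8 and 16.5 FPKM and stood at 13.9 and 13.7 and then 14.6 and 14.3 in shMLKL cells. Around CCL5, HEATR9, 2601 bases away, was listed at 0 in all 4 libraries of the first experiment, and TAF15, which encodes an RNA-binding protein, lies 24250 bases away. TAF15 rose in shMLKL cells from 144 and 148 to 167 and 163 FPKM (log2 change 0.17, limma BH-adjusted p = 0.0041), the direction of CCL5 there. In shGFP cells TAF15 was at 156 and 153 under DMSO and 144 in both TBZ libraries (−0.10, limma BH-adjusted p = 0.0255), a call lost with library medians set equal (−0.04, limma BH-adjusted p = 0.356) and without any 1 of these 4 libraries (−0.12 to −0.09, limma BH-adjusted p = 0.0531 to 0.108). In the first experiment TAF15 was at 149 and 194 FPKM in parental cells and 243 and 180 in shMLKL cells, untreated and treated.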

How the data were processed

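Poly-A selected RNA was sequenced as 100 nt paired-end reads from a stranded kit, per the labels' protocols. The authors worked with hg19, and Cufflinks 2.2.1, STAR 2.4.0f1, TopHat2 2.0.13 and GATK are named, per the submitters' processing notes, which give no role or order. The authors deposited FPKM values: a Cufflinks transcript list for each library of the first experiment, and 1 gene table for the second, whose header names no unit, so FPKM was inferred from its values and from Cufflinks. Any further scaling is not given in the sources used here, and no file holds read counts.

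A symbol on several table lines was represented by its line of highest mean. The 10364 genes whose mean reached 1 FPKM in any group were fitted on log2(FPKM + 1) in R 4.3.3 using limma 3.58.1, with a mean for each of the 4 groups and a trended empirical Bayes step (residual degrees of freedom 4, prior 3.46). A two-sided p, adjusted by Benjamini-Hochberg over all these genes, under 0.05 made a call. The log2(FPKM + 1) scale understates fold changes of low genes. The procedure was tested on simulated data. For the first experiment a gene's value is the sum of its RefSeq transcripts, and 810 genes (4 h) and 830 (12 h) listed at 0 in 1 library were left out of counts, a choice made after seeing the data. Relative depth came from the spacing of values up to 0.15 FPKM. Coordinates are of hg19 as deposited, and promoters of GRCh38.p14.

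The 3 chemokines, the gene lists and the rule for named genes were chosen with earlier results of these data known. Named were the chemokines, MLKL, set pathway genes, up to 4 called genes with the largest change in each list, the 3 genes most correlated with each chemokine and genes within 50 kb of one. The text gives part of these genes, and 3 are not reported here although they stay in the list totals.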

Additional observations from a re-analysis of the deposited data

Results flagged for a closer look

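For 35 of the named genes other than the 3 chemokines the effect of TBZ differed between the lines in the limma test of the difference itself (shMLKL minus shGFP, log2 scale, BH-adjusted p under 0.05). Of these, 20 were called under each of the 14 alternatives run and 15 lost the call under at least 1, with no change of sign. Over all genes tested, 14.6% were called larger and 7.66% smaller in shMLKL cells. The named genes were picked in part for a large change under TBZ or for correlation with a chemokine. Their count therefore carries no weight against those shares.

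Larger in shMLKL cells under every alternative were the effects on STAT2 (0.69), IL10RB (0.56), DDX58 (0.72), XAF1 (1.08), IFIT3 (1.11), IFIT2 (0.76), POLH (1.59), PPIF (0.56), SDAD1 (0.41) and TAF15 (0.28). XAF1, POLH and PPIF had been picked for their correlation with a chemokine over the same libraries, so their values are no independent support. POLH was listed at 0 in both shMLKL DMSO libraries and in all 4 libraries of the first experiment. A 0 in these data can be a failed estimate, which none of the alternatives would correct. Smaller under every alternative were IFNGR2 (−0.35), IFNGR1 (−0.34), SAMD9 (−0.60), GBP1 (−1.46), GBP3 (−0.71), SOCS3 (−1.64), PTPN2 (−0.29), ZFP36 (−2.13), ZFP36L1 (−0.78) and ZC3H12A (−0.78).

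The call was lost under 1 alternative for IRF9 (0.48, and 0.44 without shGFP DMSO library 1, limma BH-adjusted p = 0.0579) and CD274 (−1.27, and −1.15 without that library, limma BH-adjusted p = 0.0587). It was lost under 2 for MLKL (0.66, and 0.65 without shGFP DMSO library 1, limma BH-adjusted p = 0.0504, or 0.79 with a pseudocount of 0.1, limma BH-adjusted p = 0.0905) and under 4 for IRF3 (−0.47, highest limma BH-adjusted p = 0.0637, without shGFP TBZ library 2). It was lost under 5 for IRF2 (0.38, highest limma BH-adjusted p = 0.0783) and MICALL2 (0.55, 0.0668) and under 7 for RELA (−0.40, 0.0877) and GCA (0.45, 0.0903). It was lost under 8 for TLR3 (0.45, 0.106) and GPR158 (0.51, 0.102), and under 9 for IFIH1 (0.35, 0.0926). It was lost under 10 for IKBKE (0.51, 0.0826), NFKBIA (−0.20, 0.128) and SAMD9L (0.57, 0.0857), and under 12 for PIAS3 (0.29, 0.139). Among these 15 genes, each also lost the call in at least 1 fit that left out a single library.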

How the results depend on the processing

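The direction of each chemokine's change held under each alternative except in 2 differences between the lines: without shMLKL DMSO library 1 that of CCL5 under DMSO was 0.03 instead of −0.26, and without shMLKL TBZ library 1 that of CXCL11 after TBZ was 0.00 instead of 0.08. With a pseudocount of 0.1, CXCL10 changed by 2.42 in shMLKL cells, its effects differed by 1.74 and its lines under DMSO by −2.37, CXCL11 changed by 1.24 with effects differing by 0.70, and CCL5 changed by 1.28 in shGFP and 2.18 in shMLKL cells with effects differing by 0.90 and the lines under DMSO by −0.48. In the first experiment that pseudocount gave 4.71 at 4 h and 7.88 at 12 h for CXCL10 and 5.81 at 12 h for CXCL11, larger because a smaller constant is added to low values. With library medians set equal, the CXCL10 effects differed by 1.29 and its lines under DMSO by −1.81, and the lines under DMSO by −0.35 for CXCL11. Quantile normalization gave −1.83 for CXCL10, −0.32 for CXCL11 and −0.01 for CCL5 between the lines under DMSO, and 0.48 for the difference of CXCL11 effects. Leaving out 1 library at a time, CCL5 ranged from 1.23 to 1.80 in shMLKL cells, its effects differed by 0.32 to 0.89 and its lines under DMSO by −0.54 to 0.03. Calls of a difference of effects fell from 2306 to between 1327 and 1683 with 1 library fewer. The replicate numbers of the titles did not pair the libraries (residual correlations −0.066 to 0.028); with the replicate number as a block 2062 differences of effects were called, and the CXCL10 effects differed by 1.38 as before. The number of genes called higher with TBZ within a line stayed within 1.5 times in each list checked under every alternative. Differences between the lines held less well. Of 13 sensing genes 7 had a larger and 0 a smaller effect in shMLKL cells as deposited, against 1 and 1 with library medians set equal. Under DMSO 10 were lower, against 6. That setting moved calls over all 10364 genes too, from 1512 larger and 794 smaller effects to 696 and 1091. Genes called lower under DMSO went from 4640 to 2755. Among single named genes 129 results lost their call under an alternative, 13 gained one and 1958 kept their side of the threshold. With 2 libraries a group and no counts, the precision of the low CCL5 values in untreated cells is limited, and no detection floor can be given.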
